A study of Saturnispora dispora and Saturnispora hagleri and Saturnispora mendoncae with 16 samples.

Results

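Of the 5029 orthogroups in the expression table of 4 *Saturnispora* species, 59 had values in *Sat. mendoncae* (Smen) and *Sat. silvae* (Ssil) and none in *Sat. dispora* (Sdis) or *Sat. hagleri* (Shag). An orthogroup is a set of genes that OrthoFinder traces to 1 ancestral gene, and a missing value means that the species has no gene in it. The 59 members were chosen by this presence and absence alone, so their levels were not part of the choice. Smen and Ssil are the species with a low extracellular acidification rate (ECAR), a readout of how fast a culture acidifies its medium, whereas Sdis and Shag have a rapid ECAR. ECAR rises with the flux through glycolysis when yeasts ferment glucose in the presence of oxygen, as cells with a Crabtree/Warburg Effect do.

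Wild-type strains of each species were cultured as 4 biological replicates at room temperature. Each flask of 250 ml held 50 ml of SC medium, in which glucose (2%) was the sugar, and polyA RNA of log-phase cells was sequenced. The low ECAR species were collected after 18 h and the rapid ECAR species after 15 h. Collection time and ECAR class cannot be told apart, but Smen and Ssil shared the same time. The counts in genes ranged from 10026039 to 13928456 in the 4 Smen libraries and from 6196684 to 11817386 in the 4 Ssil libraries, in which replicate 4 was the shallowest and had 16.3% of its reads outside annotated genes.

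Genes that some species of a genus share and others lack can arise by gain of a gene or by its loss. They can also arise by divergence so far that the sequences no longer fall into 1 orthogroup. How the species branch was not examined here, so Smen and Ssil are not taken as a branch of their own. Genes found in few species are known in yeasts in general for short coding sequences and low expression. The members carry orthogroup IDs only, and none of their genes was among the 4 Smen and 8 Ssil gene IDs that the study's tables used here pair with a name. They are therefore described by ID, length, position and level, without a role.

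The pattern of the members was less frequent than its mirror image: 145 orthogroups had values only in Sdis and Shag, and 4305 had values in all 4 species. A further 30 orthogroups were found only in Smen and 16 only in Ssil.

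Most of the 59 members were expressed in both species, at levels below those of the other orthogroups. Levels are given in TPM, a unit in which the reads of an orthogroup are divided by the summed length of its genes and each library is scaled to the same total. In Smen the median of the members was 14.2 TPM, against 41.9 TPM over all 4615 orthogroups with a value in that species. In Ssil it was 35.1 TPM, against 76.0 TPM over 4611 orthogroups. In both species 44 of the 59 members lay below the median of the species. In these bulk RNA samples, fewer cells with a transcript and less of the transcript per cell cannot be told apart.

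Members were found at both ends of the range of levels, with a larger share than other orthogroups at the lower end. In Smen 8 members (13.6%) had a mean under 1 TPM, against 1.56% of all orthogroups, and in Ssil 9 members (15.3%) did, against 1.28%. The lowest 10% of the orthogroups of a species held 27 members (45.8%) in Smen and 22 (37.3%) in Ssil. At the other end, 7 members (11.9%) exceeded 100 TPM in Smen, against 27.1% of all orthogroups, and 13 (22.0%) did in Ssil, against 40.2%. Only 3 members were under 1 TPM in both species, while 5 were so in Smen alone and 6 in Ssil alone. Another 6 members reached at least 100 TPM in both, 1 in Smen alone and 7 in Ssil alone.

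**Figure D1:**
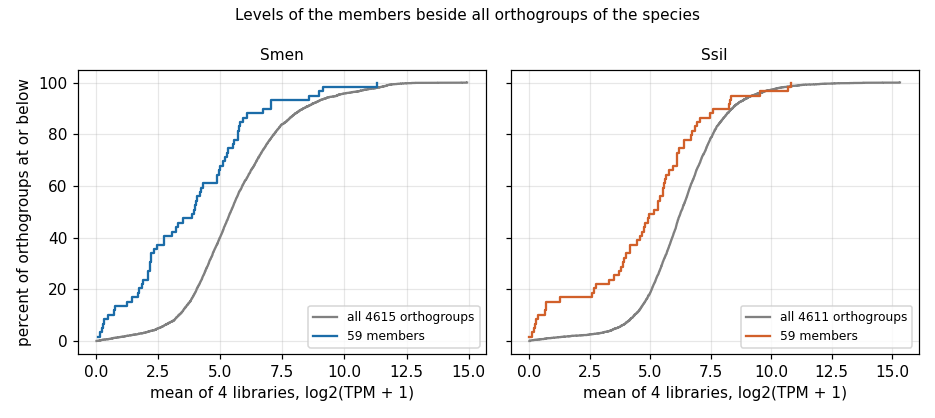
Cumulative share of orthogroups (percent, vertical axis) at or below a mean level (log2(TPM + 1) over 4 libraries, horizontal axis) in Smen and Ssil, for the 59 members (coloured) and all orthogroups of the species (grey). The curve of the members lies to the left of the grey curve over most of the range and meets it among the highest levels, with medians of 14.2 against 41.9 TPM in Smen and 35.1 against 76.0 TPM in Ssil.

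Among the other patterns of presence, the orthogroups found in Smen, Ssil and Shag had medians of 30.1 TPM in Smen and 57.8 TPM in Ssil, and those found in Smen, Ssil and Sdis had 36.0 and 56.7 TPM. The orthogroups found in 1 low ECAR species alone were lower still, with medians of 5.18 TPM over the 30 of Smen and 25.8 TPM over the 16 of Ssil. The orthogroups found only in Sdis and Shag had a median of 20.9 TPM in Sdis, against 32.5 TPM over all orthogroups there, and 38.9 TPM in Shag, against 45.4 TPM.

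Together the members took a small part of the transcriptome that varied little among replicates. Their summed TPM made up 0.517%, 0.554%, 0.518% and 0.504% of the total in the 4 Smen libraries. In the 4 Ssil libraries it made up 0.747%, 0.706%, 0.724% and 0.757%. On the TPM scale every Ssil library thus lay above every Smen library. The rescaling explained below divides Smen libraries by 0.764 to 0.816 and Ssil libraries by 1.25 to 1.32, which turns this order round. In each Smen library the 2 highest members carried 58.3% to 59.9% of this sum, and in each Ssil library 45.7% to 48.0%.

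The order of the members was partly shared by the species. Over the 59 members, the log2(TPM + 1) of Smen and Ssil had a Pearson r of 0.71 and a Spearman rho of 0.68. Over all 4423 orthogroups with values in both species these were 0.70 and 0.68. The points of such a correlation are orthogroups of the same 8 libraries and not independent replicates.

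**Figure D2:**
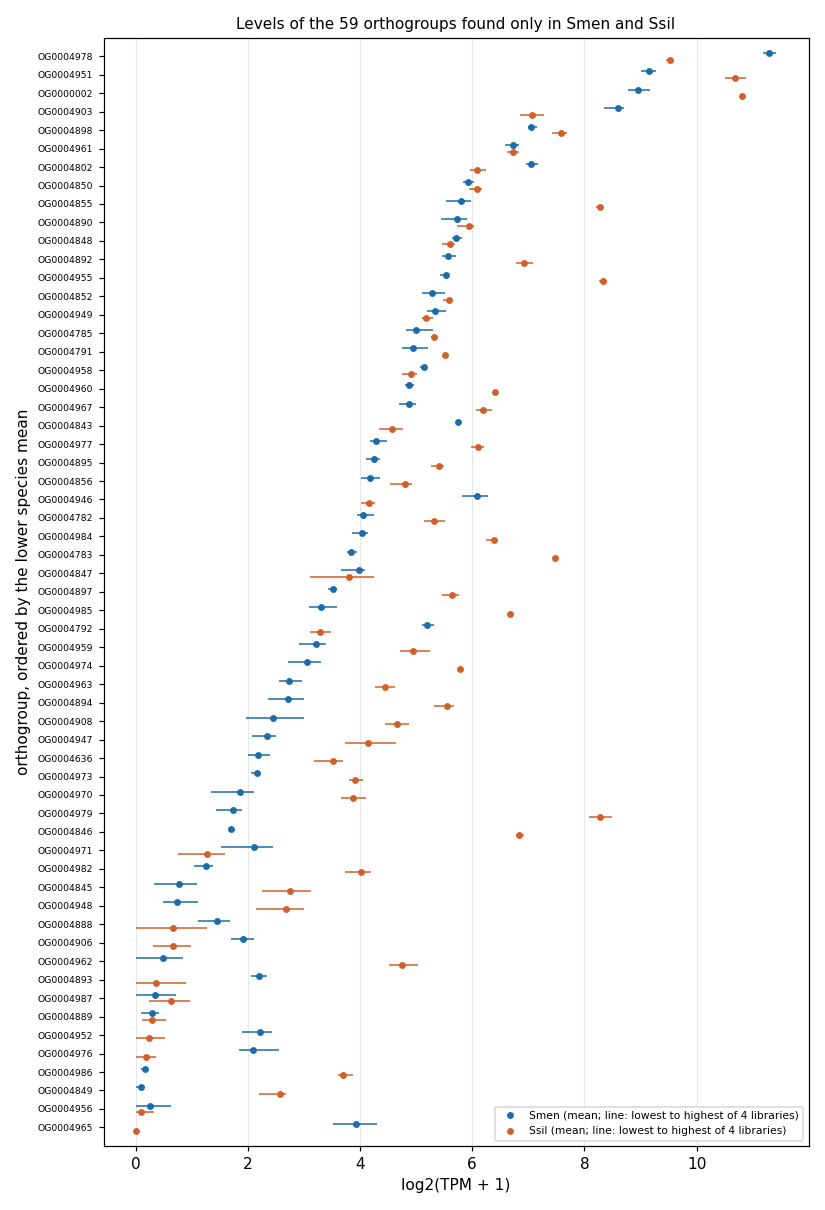
Level of each of the 59 members in log2(TPM + 1), horizontal axis, in Smen (blue) and Ssil (orange); points are means and lines run from the lowest to the highest of 4 libraries. The members are ordered by the lower of their species means, from OG0004965, which is listed at 0 in Ssil, to OG0004978, with 2505 TPM in Smen and 737 TPM in Ssil.

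OG0004978 had the highest level that both species shared. Its single gene, g000668 in Smen and g004008 in Ssil, has 257 and 198 codons of coding length. The orthogroup was at 2478, 2747, 2468 and 2326 TPM in the Smen libraries and at 737, 697, 762 and 751 TPM in the Ssil libraries. Every Smen library lay above every Ssil library, and the orthogroup ranked 94 of 4615 in Smen and 188 of 4611 in Ssil. The mean was 3.40-fold higher in Smen (2505 ± 176 against 737 ± 28.5 TPM, mean ± SD, n = 4), a log2 difference of 1.76 (SE 0.06, adjusted p = 2.7e-11 in limma).

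The differences that follow are Smen minus Ssil in log2(TPM + 1), tested with limma over all 4395 orthogroups that had a mean of at least 1 TPM over the 8 libraries, with Benjamini-Hochberg adjustment and a threshold of 0.05. On this scale the median of all orthogroups was itself shifted, to -0.68. When each library was divided by its median ratio to the other libraries, the median difference moved to 0.0078. Each difference below is therefore also given after this rescaling, where it stands relative to the bulk of the transcriptome. For OG0004978 the rescaled difference was 2.47. In CPM, the counts of the genes scaled to the library total and not divided by length, it was 2.41. The CPM scale was shifted as well, with a median difference of -0.42 over 4360 orthogroups.

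OG0004951 and OG0000002 followed OG0004978 by the lower of their species means. They were the highest members in Ssil, and both were higher there than in Smen. OG0004951 was at 568, 511, 576 and 617 TPM in the Smen libraries and at 1739, 1454, 1541 and 1877 TPM in the Ssil libraries. OG0000002 was at 444, 575, 439 and 532 TPM in the Smen libraries and at 1849, 1854, 1766 and 1745 TPM in the Ssil libraries. Every Ssil library lay above every Smen library in both orthogroups. OG0004951 stood above 98.4% of the orthogroups in Ssil and above 93.6% in Smen, and OG0000002 above 98.5% and 92.8%. The difference was -1.53 (SE 0.08, adjusted p = 2.09e-09) for OG0004951 and -1.87 (SE 0.08, adjusted p = 2.88e-10) for OG0000002. After rescaling they were -0.83 and -1.16.

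OG0000002 is the member with the most genes. In Smen its TPM values matched the sum of 5 genes, g002534, g004487, g004634, g004911 and g004921, whereas in Ssil no sum of genes that was tried matched, so its genes there are not given. In Smen g004487 took 47.3% of the counts of the orthogroup, g002534 27.0% and g004634 19.7%. The remaining copies, g004921 and g004911, took 4.34% and 1.60%. HTSeq shared read pairs that fit several genes in fractions, so the split among near-identical copies is uncertain.

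OG0004903 and OG0004802 were the members over 50 TPM in both species, beside OG0004978, that were called higher in Smen on TPM, after rescaling and after quantile normalization. OG0004903, a gene of 69 codons in Smen (g000769) and 78 in Ssil (g000689), was at 393, 418, 402 and 325 TPM in the Smen libraries against 140.1, 115, 125 and 154 TPM in the Ssil libraries. OG0004802, of 124 codons in both species (g002504 and g001383), was at 143, 125, 123 and 133 TPM against 75.2, 61.0, 63.7 and 68.2 TPM. In both orthogroups every Smen library lay above every Ssil library. The differences were 1.52 (SE 0.10, adjusted p = 9.87e-09) and 0.96 (SE 0.07, adjusted p = 6.02e-08), and 2.22 and 1.66 after rescaling.

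OG0004855, with 102 codons in Smen (g001781) and 103 in Ssil (g003392), was higher in Ssil. It was at 62.2, 45.4, 56.8 and 53.9 TPM in the Smen libraries and at 296, 321, 312 and 304 TPM in the Ssil libraries, without overlap. The mean was 5.65-fold higher in Ssil and the difference was -2.48 (SE 0.08, adjusted p = 1.67e-11), or -1.79 after rescaling.

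OG0004898, of 71 codons in both species, shows how the direction can depend on the scale. It was at 128, 129, 126 and 141 TPM in the Smen libraries and at 206, 185, 198 and 170.4 TPM in the Ssil libraries, which did not overlap. The difference was -0.53 (SE 0.07, adjusted p = 7.43e-06) as deposited and 0.17 after rescaling (adjusted p = 0.0505), where it was no longer called.

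A group of members lay at nearly the same TPM in both species. OG0004961 was at 99.0, 110.1, 113 and 95.0 TPM in the Smen libraries and at 113, 108, 97.1 and 104 TPM in the Ssil libraries, and the ranges overlapped. Its difference was -0.02 (SE 0.07, adjusted p = 0.8294), and 0.68 after rescaling. OG0004848 was at 51.7 ± 2.71 TPM in Smen and 47.7 ± 3.46 TPM in Ssil (n = 4), and OG0004949 at 39.2 ± 4.38 and 35.1 ± 2.30 TPM, with differences of 0.11 (adjusted p = 0.131) and 0.15 (adjusted p = 0.103). OG0004850 (60.1 ± 3.93 and 67.0 ± 4.63 TPM) and OG0004890 (51.8 ± 6.91 and 60.4 ± 6.01 TPM) were not called either, with differences of -0.15 (adjusted p = 0.0536) and -0.22 (adjusted p = 0.0551). After rescaling, all 5 were called higher in Smen, by 0.47 to 0.84. In CPM the directions were split: OG0004850 (-0.88, adjusted p = 2.66e-08), OG0004848 (-0.45, adjusted p = 5.54e-05) and OG0004961 (-0.24, adjusted p = 0.0214) were called higher in Ssil and OG0004949 (0.70, adjusted p = 1.37e-05) higher in Smen, while OG0004890 (-0.19, adjusted p = 0.157) was not called. The CPM median of all orthogroups was -0.42, so OG0004961 and OG0004890 lay above it and OG0004848 close to it. On the TPM scale 3 of the 5 members became called when 1 library was left out. OG0004949 passed without Ssil replicate 4 (0.20, adjusted p = 0.0487). OG0004850 passed without Smen replicate 3 (-0.18, adjusted p = 0.0379) or Ssil replicate 1 (-0.20, adjusted p = 0.0168), and OG0004890 passed without Smen replicate 1 (-0.29, adjusted p = 0.0201) or Ssil replicate 4 (-0.29, adjusted p = 0.0144).

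The 5 members with the widest differences higher in Ssil were OG0004979, OG0004846, OG0004962, OG0004783 and OG0004986. OG0004979 was at 2.75, 2.32, 2.50 and 1.71 TPM in the Smen libraries and at 281.2, 268, 329 and 359 TPM in the Ssil libraries. Its gene had 29.0 to 51.0 read pairs per library in Smen (g000704, 503 codons) and 2607.5 to 4538 in Ssil (g005126, 448 codons). The mean was 133-fold higher in Ssil, and the difference was -6.55 (SE 0.12, adjusted p = 1.57e-13), or -5.94 after rescaling. It ranked 509 of 4611 in Ssil and 4486 of 4615 in Smen.

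OG0004846 was at 2.26, 2.24, 2.30 and 2.23 TPM in the Smen libraries and at 112, 112, 109.8 and 119.9 TPM in the Ssil libraries. In Smen it holds 2 genes, g000579 and g004185, which had 22.0 to 30.0 read pairs per library together, and in Ssil the single gene g000286. The mean was 50.3-fold higher in Ssil, with a difference of -5.14 (SE 0.07, adjusted p = 2.77e-14), and -4.53 after rescaling.

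OG0004962 was at 0.591, 0.246, 0.796 and 0 TPM in the Smen libraries, from at most 6 read pairs, and at 25.8, 23.3, 31.9 and 22.0 TPM in the Ssil libraries. OG0004986 was at 0.0721 to 0.166 TPM in Smen and at 11.3, 13.7, 11.5 and 11.3 TPM in Ssil. Both were higher in Ssil in every library, with differences of -4.27 (SE 0.18, adjusted p = 1.92e-10) and -3.52 (SE 0.12, adjusted p = 2.5e-11), which the added 1 TPM draws towards 0 for such low levels. After rescaling the differences were -3.83 and -3.15, and in CPM that of OG0004962 was -3.58.

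OG0004783 differed in both level and number of genes. It was at 12.9, 14.3, 13.7 and 12.7 TPM in the Smen libraries and at 178, 174, 175 and 179 TPM in the Ssil libraries, which makes a mean 13.2-fold higher in Ssil (difference -3.63, SE 0.06, adjusted p = 1.02e-13, and -2.94 after rescaling). In Smen it matched the sum of 4 genes, of which g002338, g002339 and g002340 have consecutive numbers and g003370 lies elsewhere. In Ssil it is the single gene g002238 of 228 codons. The summed coding length in Smen was 2109 codons, and TPM divides by this sum. In CPM the difference was -0.24 (adjusted p = 0.00173), called higher in Ssil but above the CPM median of all orthogroups, -0.42.

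The 5 members with the widest differences higher in Smen were at moderate or low level. OG0004965 was at 10.5, 16.9, 18.8 and 10.7 TPM in Smen (g004821, 62.0 to 142 read pairs per library) and is listed at 0 in all 4 Ssil libraries, so no fold is given. OG0004946 was at 55.8, 72.1, 76.6 and 62.9 TPM in the Smen libraries and at 18.2, 17.4, 15.2 and 16.6 TPM in the Ssil libraries, without overlap. The difference of OG0004946 was 1.92 (SE 0.10, adjusted p = 1.07e-09), and 2.60 after rescaling. The coding length of OG0004946 was 76 codons in Smen and 346 in Ssil. In CPM its difference was 0.06 and not called (adjusted p = 0.602).

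OG0004792 was at 35.6, 33.5, 34.5 and 38.8 TPM in the Smen libraries and at 7.73, 7.61, 10.2 and 9.69 TPM in the Ssil libraries, without overlap. It matched 2 genes in Smen and 3 in Ssil, and its difference was 1.91 (SE 0.10, adjusted p = 1.49e-09), and 2.57 after rescaling. OG0004952 (3.97, 4.41, 2.73 and 3.38 TPM in Smen, at most 0.441 TPM in Ssil) and OG0004976 (2.61, 2.60, 4.90 and 3.002 TPM in Smen, at most 0.287 TPM in Ssil) did not overlap either. They were called with differences of 1.97 (SE 0.18, adjusted p = 4.06e-07) and 1.88 (SE 0.19, adjusted p = 9.56e-07), and 2.29 and 2.19 after rescaling. In Ssil both lay at 0 TPM in at least 1 library.

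The member with the lowest mean, OG0004956, was at 0.253, 0.552, 0 and 0 TPM in the Smen libraries and at 0, 0, 0.262 and 0 TPM in the Ssil libraries. It was 1 of 3 members left out of the test for a mean under 1 TPM, together with OG0004889 and OG0004987. It was at 0 TPM in 5 of the 8 libraries.

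Of the 56 members tested, 14 (25%) were higher in Smen and 36 (64.3%) were higher in Ssil. Over all 4395 orthogroups tested, 24.8% were called higher in Smen, 65.4% higher in Ssil and 90.2% in either direction. The counts of the members on TPM without a fold threshold, 50 in all (89.3%), thus lie near the background. With a log2 difference of at least 1 required as well, 10 members (17.9%) were higher in Smen and 31 (55.4%) in Ssil. The shares of all orthogroups were 11.1% and 40.3%. After rescaling, 22 members (39.3%) were called higher in Smen and 31 (55.4%) higher in Ssil, against 44.4% and 44.5% of all orthogroups. In either direction 53 (94.6%) were called, against 88.9%. By at least 2-fold these were 13 (23.2%) and 24 members (42.9%), against 22.3% and 21.4%. After quantile normalization 24 members (42.9%) were called higher in Smen and 31 (55.4%) in Ssil, against 44.2% and 44.7%. In either direction 55 (98.2%) were, against 88.8%. By at least 2-fold these were 16 (28.6%) and 20 members (35.7%), against 21.1% and 21.2%. The 2-fold shares of the members lay above those of all orthogroups, though only slightly for higher in Smen after rescaling. On TPM, on the rescaled values and after quantile normalization alike, 14 members were called higher in Smen (23.9% of all orthogroups) and 31 higher in Ssil (39.8%). Every Smen library lay above every Ssil library in 12 of the 59 members (20.3%), against 23.4% of all 4423 orthogroups with values in both species. Every Ssil library lay above every Smen library in 34 (57.6%), against 63.7%. In all, 46 members (78%) did not overlap between the species, against 87.1% of those orthogroups.

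The differences of the members had a lower median and were more often large. Their median was -1.33, against -0.68 over all tested, and -0.65 against 0.0078 after rescaling. After quantile normalization it was -0.39 against -0.01. An absolute rescaled difference of over 2 was seen in 19 of the 56 members (33.9%) and in 667 of the 4395 orthogroups (15.2%).

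The same share was taken within a common range of levels. In the range of mean levels that held the middle of the members, 7.63 to 56.0 TPM, 7 of 29 members (24.1%) had an absolute rescaled difference of over 2, against 8.91% of 1751 orthogroups found in all 4 species. The median absolute difference was 1.13 and 0.71. The replicate SD of log2(TPM + 1) had a median of 0.16 in Smen and 0.13 in Ssil for these members, and 0.11 in both species for the other orthogroups. The members thus also had the wider replicate spread in this range. At the same TPM a shorter gene has fewer reads, and neither reads nor lengths were matched here. Whether this widens the spread was not tested.

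**Figure D3:**
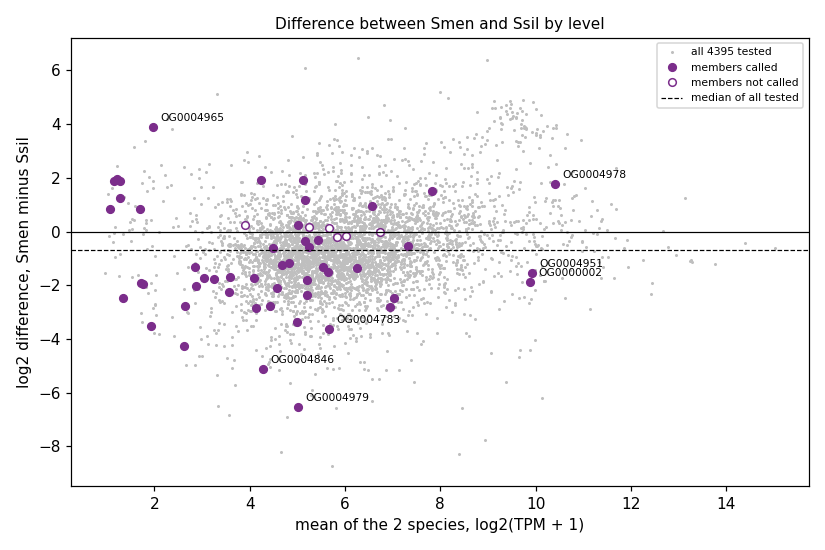
Difference between Smen and Ssil in log2(TPM + 1), vertical axis, against the mean level of the species, horizontal axis, for all 4395 orthogroups tested (grey), members called (filled) and members not called (open). The dashed line is the median of all orthogroups, -0.68; OG0004979 lies lowest of the members at -6.55 and OG0004965 highest.

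The 35 members not described one by one had means of 0.0687 to 52.5 TPM in Smen and 0.226 to 322 TPM in Ssil, with medians of 8.32 and 26.9 TPM. Of the 33 of them that were tested, 6 were called higher in Smen and 26 higher in Ssil, with differences between -3.38 and 1.88. Over all orthogroups tested, 24.8% were called higher in Smen and 65.4% higher in Ssil. The rule for describing members had taken out the widest differences and some uncalled members, so it shaped this split. OG0004985, at 8.89 TPM in Smen and 101 TPM in Ssil, had the widest of these.

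The genes behind the values could be tied to 55 members in Smen and 50 in Ssil, because the TPM of an orthogroup is proportional over the libraries to the summed counts of its genes. Both species were tied for 48 members, and 43 of these had a single gene in each. Genes without a read cannot be seen in this way, so numbers of genes are lower limits. The lengths given follow from the summed length of the orthogroup, so a gene that was not seen would add to them. OG0000002, OG0004636, OG0004783, OG0004792, OG0004846 and OG0004850 had more than 1 gene in at least 1 species.

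The single-gene members were short. Their median coding length was 250 codons in Smen and 228 in Ssil, against 415 in both species for the 4108 single-gene orthogroups found in all 4 species. Both genes were under 150 codons in 9 of the 43 members (20.9%), against 6.77% of those orthogroups. The lengths of the Smen and the Ssil gene also differed more often: they were within a factor of 1.1 of each other in 20 members (46.5%), against 84.4%, and further apart than a factor of 1.5 in 5 members (11.6%), against 3.14%. These 5 include OG0004946, with 76 and 346 codons, and OG0004951, with 94 and 154. OG0004903 had the shortest gene in Smen, with 69 codons, and OG0004898 the shortest in Ssil, with 71.

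Among the members tied in Ssil, OG0004636 had the most genes there, with 4 (g001410, g002923, g004652 and g004953) and 2 in Smen (g004777 and g004923). It was at 4.29, 3.15, 3.01 and 3.73 TPM in the Smen libraries and at 10.6, 8.06, 11.1 and 11.998 TPM in the Ssil libraries, without overlap. The difference was -1.33 (SE 0.14, adjusted p = 1.17e-06), and -0.73 after rescaling. The summed coding length was 442 codons in Smen and 1872 in Ssil, and in CPM the difference was -3.12 (adjusted p = 2.62e-11). In Ssil g004652 took 40.4% of the counts of the orthogroup and g002923 34.8%. In OG0004792 the Smen gene g002662 took 75.6% of the counts, and in Ssil g004401 took 53.9%, g004067 43.4% and g004400 2.73%. In OG0004850 the Ssil gene g004403 took 87.1% of the counts and its neighbour g004402 the rest.

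**Figure D4:**
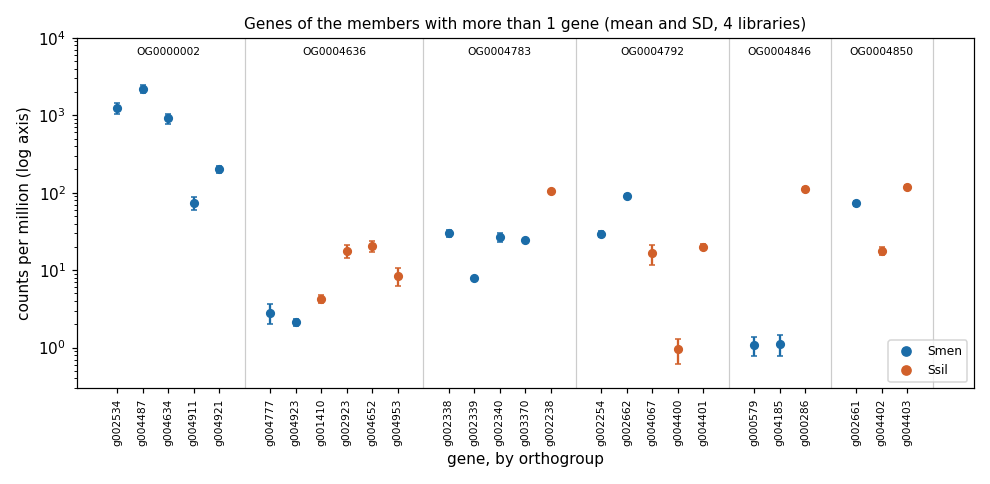
CPM, counts scaled to the library total (log axis, not divided by length), of each gene of the 6 members with more than 1 gene, in Smen (blue) and Ssil (orange); points are means and bars SD over 4 libraries. In Smen g004487, g002534, g004634 and g004921 of OG0000002 lie above the other genes shown and g004911 does not, and g004400 of OG0004792 lies lowest of the Ssil genes; genes of OG0000002 in Ssil are not shown because they were not tied.

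The gene numbers in the count tables follow the order of genes along the genomes closely enough to compare neighbourhoods. Of 3749 neighbouring pairs of single-gene orthogroups in Smen, 3430 (91.5%) were also neighbours in Ssil, and from 91.4% to 97.3% were between any species. Smen kept 93.9% of the pairs of Sdis and 94.3% of those of Shag. By this measure Smen was no closer to Ssil than to the rapid ECAR species. For each member, the nearest orthogroup on either side with 1 gene in each of the 4 species was taken as its flank, a rule chosen after the data were seen. Of the 48 members tied in both species, 41 (85.4%) had the same pair of flanks in Smen and in Ssil, 3 shared 1 flank and 4 shared none. Of 4051 orthogroups with 1 gene in each species, 92.3% had the same flanks in Smen and Ssil.

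In Sdis and Shag many members had no listed gene at their place. The sequence between the flanks was not examined, so a copy without an annotation would not be seen. For 21 of these 41 members (51.2%), the flanks were direct neighbours in both Sdis and Shag, with consecutive gene numbers and no listed gene between them. OG0004978, OG0004903, OG0004802, OG0004890, OG0004792, OG0004783 and OG0004962 were among them, with OG0004792 placed by its copies g002254 and g004067. At a further 5 members the genes between the flanks in Sdis and Shag were ones that Smen or Ssil also has there. When only the 22 members directly next to both flanks in Smen and Ssil were counted, 17 (77.3%) had no listed gene there in Sdis and Shag.

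The mirrored question gave a like share. Of the 122 orthogroups found only in Sdis and Shag whose genes were tied in both, 95 had the same flanks in both species. For 48 of these (50.5%) the flanks were direct neighbours among the listed genes of Smen and of Ssil. In Ssil 436 gene numbers are not listed, against 0 in Smen, 85 in Sdis and 33 in Shag. Direct neighbours in Ssil thus need not have consecutive numbers.

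At 6 members, an orthogroup found only in Sdis and Shag stood between the same flanks in both of those species. The rapid ECAR species thus have another gene at that place, in an orthogroup of its own, called the counterpart below. It was picked by its place and its pattern of presence alone, and further genes can stand between the same flanks. Whether the gene of the member and the other gene derive from 1 ancestral gene was not tested, since no sequence was compared. TPM between orthogroups of different species is given side by side only.

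OG0004951 and its counterpart OG0004838 were both among the high levels of their species. OG0004838, of 68 codons in Sdis and Shag, was at 2922, 3125, 3382 and 3455 TPM in the Sdis libraries and at 2479, 2885, 2958 and 3291 TPM in the Shag libraries. OG0004951, of 94 codons in Smen and 154 in Ssil, had 568 ± 43.6 and 1653 ± 191 TPM. OG0004951 lay above both of its flanks in Smen and in Ssil, where OG0003759 and OG0003760 had 460.3 and 51.0 TPM in Smen and 138 and 63.4 TPM in Ssil.

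OG0004961, with 71 codons in Smen and 101 in Ssil, stood opposite OG0004766, with 106 codons in Sdis and 91 in Shag. The means were 104 ± 8.76 TPM in Smen, 105 ± 6.57 TPM in Ssil, 105 ± 9.79 TPM in Sdis and 121 ± 14.2 TPM in Shag (SD, n = 4). The libraries of the species that share each orthogroup overlapped.

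OG0004955 had 45.4 ± 2.44 TPM in Smen and 322 ± 13.8 TPM in Ssil, while OG0004723, its counterpart, stood at 141 ± 20.1 TPM (Sdis) and 180.0 ± 21.5 TPM (Shag). Between the flanks of OG0004955 Sdis had 3 genes and Shag 2. Among those of Sdis was OG0004915, at 79.6 TPM and found in Sdis alone. OG0004897 was lower than its counterpart, with 10.4 ± 0.627 and 48.8 ± 4.58 TPM against 264 ± 54.5 and 477 ± 135 TPM for OG0004717. Sdis and Shag each had 4 genes between the flanks of OG0004897. The remaining pairs were OG0004967 (28.2 and 72.6 TPM in Smen and Ssil) with OG0004757 (115 and 33.4 TPM in Sdis and Shag), and OG0004974 (7.28 and 54.3 TPM) with OG0004753 (28.8 and 74.3 TPM).

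**Figure D5:**
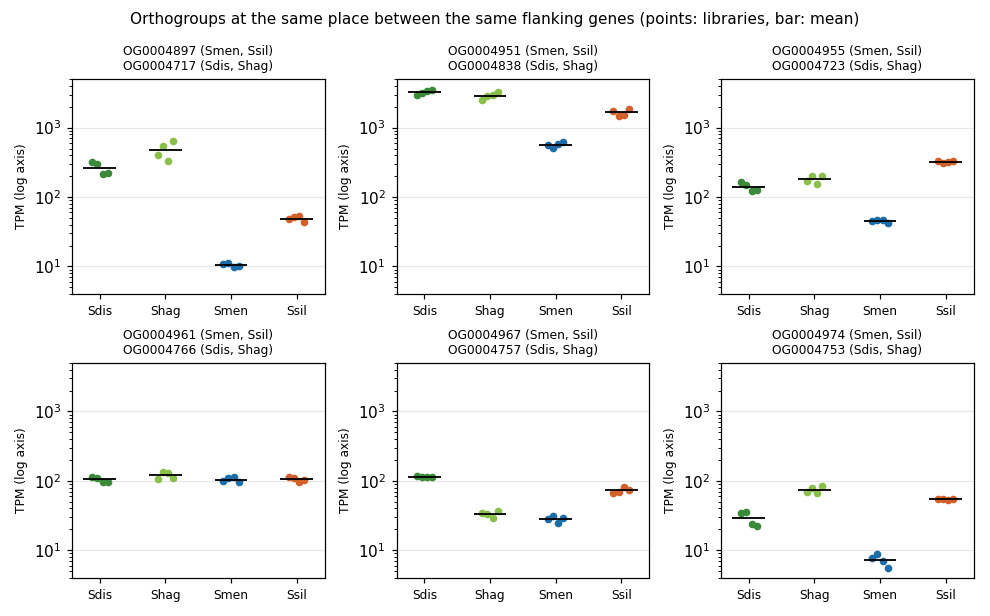
TPM (log axis) in each library (points) and mean (bars) of 6 members in Smen and Ssil and of their counterparts. Each counterpart is the orthogroup, found only in Sdis and Shag, that stands between the same flanking genes there. OG0004838 lies between 2479 and 3455 TPM in Sdis and Shag, above the 511 to 1877 TPM of OG0004951 in Smen and Ssil, and OG0004961 and OG0004766 have means between 104 and 121 TPM.

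At OG0004855, the place between the flanks held a gene in Sdis (g001355) and in Shag (g003042) that was tied to no orthogroup here. These genes had 299 ± 18.4 CPM in Sdis and 1243 ± 658 in Shag (SD, n = 4).

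Several members were neighbours of other members. OG0004792 and OG0004850 were direct neighbours in both species, as g002662 and g002661 in Smen and g004401 and g004402 in Ssil. On the TPM scale OG0004792 was called higher in Smen and OG0004850 was not called. OG0004973 and OG0004974 stood with 1 gene between them in both species, and both were called higher in Ssil on TPM (-1.75 and -2.76) and after rescaling (-1.14 and -2.10). OG0004783 and OG0004895 were neighbours in Ssil only.

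OG0004636, OG0004895, OG0004906 and OG0004979 shared no flank between Smen and Ssil. Gene numbers do not mark where a scaffold ends, so a missing shared flank does not by itself show another place in the genome. OG0004979, with the widest difference of the members, is one of them.

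Levels were also set beside those of the flanks. Of the 41 members with both flanks shared, 19 (46.3%) lay below both flanks in Smen and 14 above both, and in Ssil 17 (41.5%) lay below and 9 above. Over the orthogroups with 1 gene in each species, 32.8% lay below both flanks in Smen and 32.5% in Ssil, and 32.9% and 32.6% lay above both. OG0004978 was among the members above both flanks in both species: its flanks OG0003647 and OG0003648 had 120 and 34.8 TPM in Smen and 155 and 51.6 TPM in Ssil.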

How the data were processed

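Poly(A) RNA of 16 cultures (4 replicates of each of 4 species) was sequenced in pairs of 150 bp. Reads were trimmed with Trimmomatic 0.30, checked in FastQC and aligned with HISAT2 2.1.0 to the genome of each species, and the build is not given in the sources used here. The authors deposited estimated counts per gene from HTSeq 2.0.3, in which a read pair matching more than 1 gene adds a fraction to each. The TPM values per OrthoFinder orthogroup were made by the authors from summed counts and gene lengths with edgeR. From 5.37% to 19.0% of the reads of the Smen and Ssil libraries named no gene and were left out. No replicates were alike within sampling noise (chi-square per degree of freedom 4.40 to 16.7 over 12 pairs).

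Genes were tied to orthogroups when their counts, or a sum of up to 4 genes (more for OG0000002), were proportional to TPM within 1e-08. On simulated orthogroups of up to 4 genes this linked 4437 of 4490, 0 of them wrongly. The wider search used for OG0000002 was not simulated, so these rates do not cover it. Lengths that follow are coding lengths summed over the orthogroup, with any gene that was not seen included. Smen and Ssil were compared with limma 3.58.1 (R 4.3.3), fitted with an intensity trend to log2(TPM + 1). On simulated data of 4358 orthogroups for Smen against Ssil, limma called 95% of those changed 1.5-fold, 100% of those changed 2-fold and 0.289% of those unchanged. The simulation gave both species a common mean profile, with changes balanced in direction. It held no shift between the species like that of the real TPM, so its rates do not cover calls that depend on the scale. Alternatives were median-ratio rescaling, quantile normalization, CPM, pseudocount 0.1, other filters, no trend, edgeR 4.0.16 and DESeq2 1.42.0 on rounded counts with length as offset, a replicate block, a 2-fold threshold and each library left out. The replicates are separate cultures per the labels.

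The members, lists and tests were chosen with earlier results of these data known. Members were described one by one by this rule: the 10 with the highest lower species mean, the 5 called with the largest difference in each direction, the 3 not called with the smallest difference over 10 TPM, those with 3 or more genes in a species, any with a named gene, the lowest, and any of these with an outlying replicate. Others, named for their length, position or neighbours, were chosen after their values were seen.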

Additional observations from a re-analysis of the deposited data

Results flagged for a closer look

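In groups of 4 libraries, 3 of 53 sets of values had 1 library far from the others by Dixon's ratio, about the 1 in 20 that chance gives. OG0004986 in Ssil had 13.7 TPM in replicate 2 against 11.3 to 11.5 TPM in the other libraries. OG0004956 in Ssil had 0.262 TPM in replicate 3 and 0 TPM in the others. The counts in genes of Ssil were 6196684 in replicate 4, against 10920418 to 11817386 in the others.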

How the results depend on the processing

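Of 420 pairs of a member described one by one and an alternative, 376 kept direction and side of the threshold, and 16 of 23 members did so in every alternative. By setting, the 14 members called higher in Smen became 22 with median-ratio rescaling (also without Ssil replicate 4, an alternative chosen after seeing the data), 24 with quantile normalization, 9 in CPM (48 members tested) and 8 with a mean of at least 5 TPM (47 tested). Of the 14, OG0004888, OG0004893, OG0004952, OG0004965 and OG0004976 had no tied genes in Ssil and so no test in CPM. The 1091 orthogroups called higher in Smen became 1953 with median-ratio rescaling (1934 without Ssil replicate 4), 1941 with quantile normalization, 1916 in edgeR and 1943 in DESeq2. With a 2-fold threshold 2259 orthogroups were called, 486 higher in Smen and 1773 higher in Ssil. The members' median difference was -0.65 with median-ratio rescaling (-0.66 without Ssil replicate 4), -0.39 with quantile normalization, -0.90 in CPM, -0.77 in edgeR and -0.75 in DESeq2. Over all orthogroups tested the median was -0.42 in CPM, -0.01 in edgeR and 0.01 in DESeq2. The members' median, 34.0% of that of all orthogroups in Smen and 46.2% in Ssil, became 21.7% and 33.5% in CPM. The share under 1 TPM, 13.6% in Smen and 15.3% in Ssil, became 37.3% and 18.6% under 5 TPM, and 9.09% and 2.00% under 10 read pairs among members with tied genes. Tying needs reads, which left out 4 members in Smen and 9 in Ssil, all but OG0000002 under 1 TPM there. The share under 10 read pairs is therefore lowered by construction. The cause was not tested beyond what these settings are built to change.

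Differences that turned were, with median-ratio rescaling, quantile normalization, edgeR and DESeq2 in turn, 0.54, 0.65, 0.53 and 0.56 for OG0004850, 0.47, 0.62, 0.45 and 0.47 for OG0004890, and 0.68, 0.61, 0.67 and 0.69 for OG0004961. OG0004898 turned to 0.17 with rescaling, 0.14 in edgeR and 0.16 in DESeq2. With rescaling and without Ssil replicate 4, these 4 were 0.54, 0.39, 0.66 and 0.10. OG0004848 turned to -0.45 in CPM, close to the CPM median of all orthogroups. OG0004961 ranged from -0.057 to 0.027 when single libraries were left out.

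Replicate numbers did not pair the samples: deviations of same-numbered libraries correlated at 0.12, -0.08, -0.02 and -0.02. With a replicate block 51 members were called, and of the members described one by one OG0004890 became called (-0.22, adjusted p = 0.0112). Depth limits the low members: those under 1 TPM in Smen with tied genes had at most 9 read pairs in any library. The share of members with no listed gene between their flanks was 77.3% in place of 51.2% when flanks had to be direct neighbours, an alternative chosen after seeing the data.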
